A study of Mus musculus with 3 samples.

Results

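Endothelial cells were chosen by measured values in 3 mouse mammary tumour sections, namely transcripts of Pecam1, which encodes the adhesion molecule CD31, and Cdh5, which encodes VE-cadherin of endothelial junctions. A cell was taken where Pecam1 and Cdh5 together reached at least 3 transcripts, Col1a1 (type I collagen) took under 15% of its transcripts, and Pdgfrb and Rgs5, genes of pericytes, together had at most 1. This gave 14388 endothelial-gated cells of 1747403 kept cells, that is 7264 of 619770 in tumour 1, 4320 of 453995 in tumour 2 and 2804 of 673638 in tumour 3. Kept cells had at least 20 transcripts of panel genes and a volume from 50 to 3 times the section's median.

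The 3 sections, each of a formalin-fixed tumour, carry the label MMTV-PyMT WT and form 1 group with neither treatment nor control. In MMTV-PyMT mice a mammary promoter drives the polyoma middle T oncogene in the epithelium, so the vessels belong to the host tissue. The labels do not explain WT and give neither strain nor age, and nothing ties each tumour to a separate animal. The p-values therefore rest on the spread between these tumours, with variances partly pooled over genes. MERSCOPE imaging decoded single transcripts of 258 genes in segmented cells, beside 27 blank codes that stand for no gene and count false decoding. The 258 are the genes with counts here, while the design text of the series states a panel of another size.

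Endothelial cells line blood and lymphatic vessels and lay down the basement membrane beneath them together with pericytes, the contractile cells that wrap capillaries. In sprouting vessels, VEGF induces the Notch ligand Dll4 in the leading tip cell, and Dll4 restrains sprouting in its neighbours through Notch receptors. Bone morphogenetic proteins of the blood and vessel wall induce Id genes in endothelium, and Wnt signalling through Lef1 is active in some vascular beds.

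The gate removed 1919, 1404 and 537 cells for Col1a1 and 2064, 1110 and 391 for Pdgfrb and Rgs5 from the 11247, 6834 and 3732 cells with enough Pecam1 and Cdh5. Endothelial-gated cells made up 1.17%, 0.952% and 0.416% of the kept cells in tumours 1, 2 and 3. Both genes were detected in 85.0%, 84.4% and 80.9% of them, and Pecam1 gave 50.6%, 54.3% and 51.6% of the gate transcripts. As a check within the gate, cells with at least 3 Pecam1 transcripts, with no demand on Cdh5, carried 17.9 ± 4.4 Cdh5 transcripts per 1000 panel transcripts (SD, n = 3), against 0.612 ± 0.168 in the other kept cells. Cells with at least 3 Cdh5 transcripts carried 18.1 ± 5.2 Pecam1 per 1000, against 0.578 ± 0.173. Each gene thus marked cells that held the other, by a log2 ratio of 4.87 ± 0.10 and 4.97 ± 0.08. Of 34 endothelial markers listed, the panel held Pecam1, Cdh5 and the caveolin gene Cav1 only. Cav1 stood at 1.73, 1.16 and 0.551 per 1000 in the gated cells, below the highest blank code of tumour 3 (0.915 per 1000), so the identity of the cells rests on the gate genes.

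The endothelial-gated cells held 979935, 688316 and 419470 panel transcripts in tumours 1, 2 and 3, with medians of 117, 135 and 126 per cell against 97, 106 and 94 in all other kept cells. Their median volume was also higher, at 665, 788 and 795 µm3 against 555, 671 and 621 µm3. They were slightly more elongated, with a median ratio of long to short axis of 1.39, 1.34 and 1.36 against 1.36, 1.28 and 1.32. Fibroblast-gated cells (defined below) came close to them, at 1.38, 1.30 and 1.36, while pericyte-gated cells stood at 1.34, 1.28 and 1.33. Blank codes amounted to 0.470%, 0.441% and 0.548% of panel transcripts in the endothelial-gated cells and 0.498%, 0.471% and 0.485% in all other kept cells. A gate on a minimum of transcripts favours cells with more transcripts, so counts were compared as levels per 1000 panel transcripts.

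**Figure D1:**
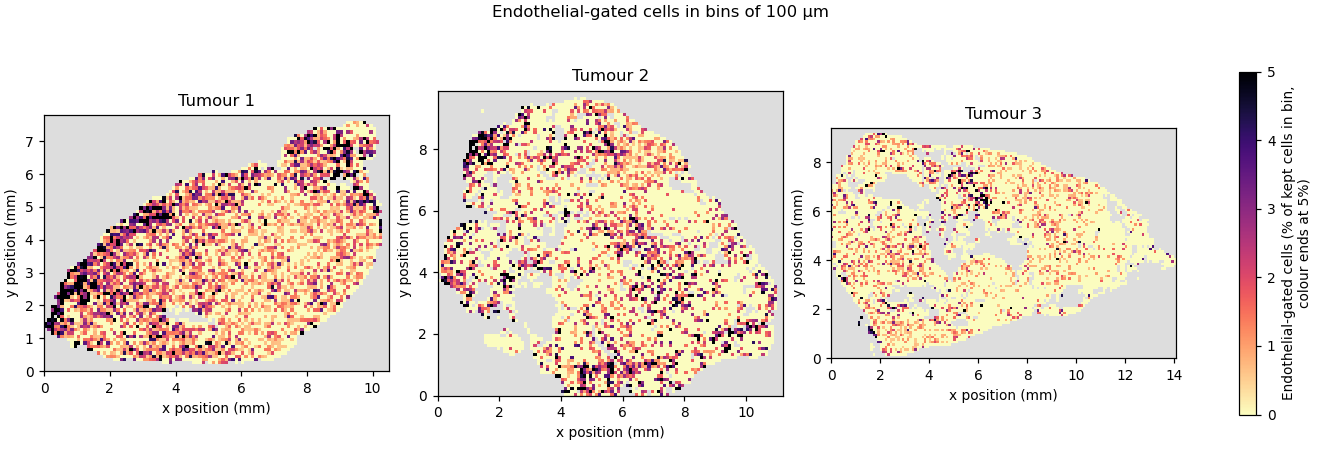
Share of endothelial-gated cells among kept cells in bins of 100 µm across the 3 sections, with x and y position in mm, and bins with under 20 kept cells in grey. Tumour 1 held an endothelial-gated cell in 62.8% of its bins, tumour 2 in 35.9% and tumour 3 in 26.1%, and dark bins gather in patches, some along the edge.

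Endothelial-gated cells were densest in tumour 1, at 146 per mm2, against 61.8 in tumour 2 and 37.8 in tumour 3. As the map of bins shows, they were spread through all 3 sections. In the single highest bin they took 32.4% of the cells in tumour 1, 40% in tumour 2 and 15% in tumour 3. The 90th percentile over bins was 3.47%, 2.97% and 1.49%. They also gathered with their own kind. Another endothelial-gated cell lay within 25 µm of 54.3%, 42.1% and 35.3% of them, but of 19.0%, 11.2% and 6.33% of the other kept cells. The median distance to the nearest other endothelial-gated cell was 21.8, 32.1 and 41.7 µm, and the median other cell was 46.1, 67.1 and 84.5 µm from one. In tumour 3, 39.9% of the other kept cells lay beyond 100 µm of any endothelial-gated cell, against 7.30% in tumour 1 and 28.1% in tumour 2. The gate is a fixed number of transcripts, and 2070 of 7264, 1274 of 4320 and 1218 of 2804 endothelial-gated cells held exactly 3. The part of gate gene detection in the differences between tumours was not tested.

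Pericytes were close by more often than for other cells. A pericyte-gated cell (Pdgfrb and Rgs5 at least 3, Pecam1 and Cdh5 at most 1) lay within 25 µm of 24.1%, 19.7% and 19.3% of the endothelial-gated cells, against 12.3%, 8.08% and 6.19% of the others. For fibroblast-gated cells (Col1a1 at least 15% of transcripts) the shares were 63.1%, 56.2% and 49.5% against 42.0%, 32.6% and 26.6%. Macrophage-gated cells followed at 37.0%, 22.0% and 6.92% against 31.6%, 17.9% and 4.10%, the smallest gap in percentage points. Within 150 µm of the outer tissue edge, endothelial-gated cells made up 1.62%, 1.44% and 0.480% of kept cells, against 1.04%, 0.867% and 0.405% at 500 µm or deeper. Every one of these differences had the same sign in 3 of 3 tumours, but 3 pairs allow no exact two-sided permutation p below 0.25, so none was tested.

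**Figure D2:**
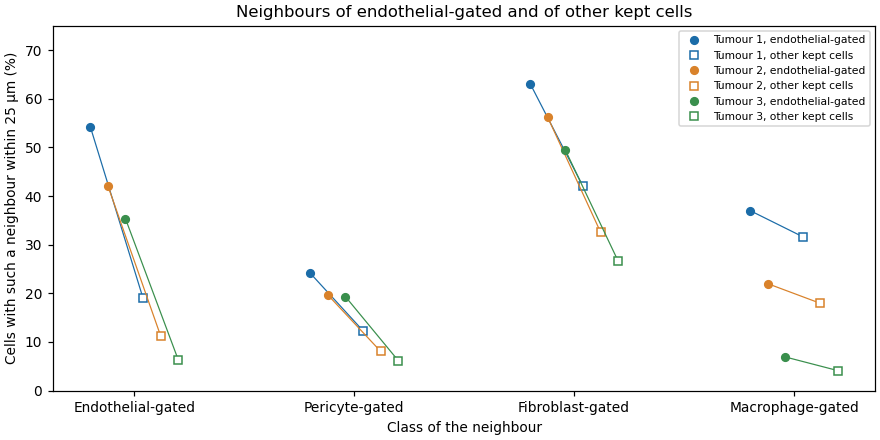
Percent of endothelial-gated cells (filled circles) and of other kept cells (open squares) with a neighbour of the class on the x axis within 25 µm, 1 colour per tumour with a line joining each tumour's pair. The circle lies above the square in all 3 tumours for each class, from 54.3% against 19.0% for endothelial-gated neighbours in tumour 1 to 6.92% against 4.10% for macrophage-gated neighbours in tumour 3.

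Against all other kept cells, the endothelial-gated cells stood out by a Notch ligand, a basement membrane collagen and an Id gene. Among the called genes that exceeded the highest blank code in every tumour, Dll4 had the largest rise, followed by Col4a1 and Id1, while epithelial genes such as Sox9 and Cldn4 were lower. Of the 253 panel genes that no gate used, 66 were higher (26.1%) and 68 lower (26.9%), 53% in either direction, at an adjusted p under 0.05 (edgeR quasi-likelihood F-test on sums per tumour, tumour as a block, Benjamini-Hochberg), with a median log2 fold change of -0.06 over all 258 genes tested. Of these, 22 higher and 54 lower genes also exceeded the highest blank code of the higher side in every tumour. Blank codes put in the fit beside the genes were called at a similar rate, with 8 of 27 higher and 7 lower. The share of genes called thus does not by itself tell genes from false decoding. Scaling by library size alone in place of TMM moved the median to -0.35 and the split to 45 higher and 131 lower, so directions are relative to the panel. Without tumour 1, 44 genes were lower.

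**Figure D3:**
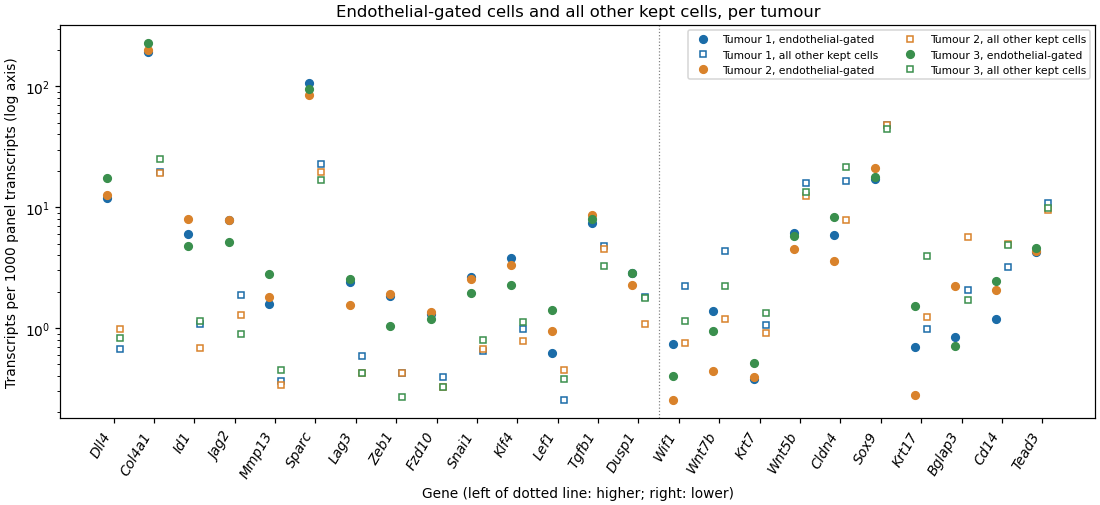
Transcripts per 1000 panel transcripts (log axis) of genes named for this comparison by rank of change, in endothelial-gated cells (filled circles) and all other kept cells (open squares), 1 colour per tumour. Dll4 lies from 11.9 to 17.6 in the gated cells and from 0.665 to 0.981 in the others, and Sox9 from 17.1 to 21.2 against 44.4 to 47.6.

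Among Notch ligands, Dll4 reached 11.9, 12.6 and 17.6 per 1000 panel transcripts in the endothelial-gated cells of tumours 1, 2 and 3, and 0.665, 0.981 and 0.828 in all other kept cells. The groups lay far apart, and the log2 fold change was 4.37 ± 0.19 (SE, edgeR adjusted p = 8.67e-05). Jag2, a second ligand, stood at 7.79, 7.77 and 5.19 against 1.87, 1.28 and 0.896 per 1000, a log2 fold change of 2.68 ± 0.14 (edgeR adjusted p = 0.000167). It was lowest in tumour 3, where Dll4 was highest, and no tumour overlapped with the other cells. Jag1, a ligand also made by pericytes and epithelium, rose less, at 0.77 ± 0.20 (edgeR adjusted p = 0.0254), and its levels overlapped between the groups. The receptor genes Notch2 (-0.74 ± 0.09) and Notch3 (-0.87 ± 0.08), the latter a receptor of pericytes, were lower. Notch1, the receptor through which Dll4 acts in endothelium, was 20.3 ± 3.8 against 21.1 ± 6.6 per 1000 (SD, n = 3) and did not pass (edgeR adjusted p = 0.0854). Against other kept cells within 25 µm Notch1 was called higher, but not with library size alone. In the whole Notch list, 3 of 11 genes were higher and 2 lower, with a median of 0.25, where 26.1% and 26.9% of all 253 genes were. With library size alone, 2 were higher and 5 lower and the median was -0.03.

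Col4a1, which encodes a chain of the type IV collagen of basement membranes, was counted at 191, 199 and 230 per 1000 in the endothelial-gated cells, against 19.4, 19.0 and 24.8 in the others (log2 fold change 3.58 ± 0.07, edgeR adjusted p = 5.43e-06). Sparc, a matrix protein that binds collagen, stood at 106, 84.9 and 95.1 against 22.7, 19.7 and 16.9 (2.56 ± 0.11, edgeR adjusted p = 8.67e-05). Both genes were separated in every tumour. The collagenase gene Mmp13 was lower in count but also separated, at 1.57, 1.82 and 2.79 against 0.367, 0.340 and 0.452 per 1000 (2.66 ± 0.15). Mmp14, a membrane-bound protease that cleaves collagen, was higher by 1.01 ± 0.15, while the thrombospondin gene Thbs1 (-0.83 ± 0.12), an inhibitor of vessel growth, and the protease inhibitor gene Timp2 (-0.73 ± 0.10) were lower. In the matrix list, 5 of 12 genes were higher and 3 lower (26.1% and 26.9% over all genes), with a median of 0.26, and with library size alone 4 were higher and 4 lower with a median of -0.02.

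Id1, an inhibitor of differentiation that BMP signals induce, stood at 6.04, 7.98 and 4.77 per 1000 against 1.08, 0.681 and 1.15 in all other kept cells (log2 fold change 2.97 ± 0.30, edgeR adjusted p = 0.00115). Tumour 2 had the highest Id1 in the endothelial-gated cells and the lowest in the others. Id3, its relative, was 2.24, 2.23 and 0.803 against 0.246, 0.206 and 0.177 (3.23 ± 0.27), though in tumour 3 it was below the highest blank code. Id2, by contrast, was lower (-0.62 ± 0.08). The ligand gene Tgfb1 was higher, at 7.45, 8.56 and 7.94 against 4.78, 4.48 and 3.25 (1.23 ± 0.15), whereas Tgfb3 was lower (-0.71 ± 0.07). Of 12 TGF-beta and BMP genes, 4 were higher and 3 lower (26.1% and 26.9% over all genes), with a median of 0.10. With library size alone 4 were higher and 5 lower, with a median of -0.18.

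Of 8 transcription factors linked to the endothelial-to-mesenchymal transition, 6 were higher and 1 lower (26.1% and 26.9% over all genes), with a median of 1.15, and 2 of the 6 exceeded the blank codes in every tumour. With library size alone the counts were again 6 and 1, and the median was 0.87. Zeb1 stood at 1.83, 1.90 and 1.04 against 0.427, 0.427 and 0.270 per 1000 (2.35 ± 0.11, edgeR adjusted p = 8.67e-05). Snai1 stood at 2.66, 2.53 and 1.95 against 0.643, 0.670 and 0.791 (2.04 ± 0.17, edgeR adjusted p = 0.000747). Neither overlapped between the groups in any tumour. Snai2, Zeb2, Tcf4 and Foxc2, the last a regulator of lymphatic valves, were also higher, but these did not exceed the highest blank code in every tumour. Klf4, a factor that shear stress induces in endothelium, was 3.82, 3.33 and 2.28 against 0.977, 0.778 and 1.13 per 1000 (1.98 ± 0.23). Of the immediate early list, Klf4 and Dusp1 (1.10 ± 0.11), a phosphatase of MAP kinases, were higher and 4 of 9 were lower, among them Fos (-0.69 ± 0.08) and Egr1 (-0.65 ± 0.08).

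Of 26 Wnt genes, 5 were higher and 14 lower (26.1% and 26.9% over all genes), with a median of -0.35. The receptor gene Fzd10 was 1.30, 1.35 and 1.18 per 1000 against 0.393, 0.323 and 0.325 (2.16 ± 0.12). Lef1, a transcription factor of the pathway, was 0.617, 0.953 and 1.41 against 0.253, 0.451 and 0.378 (1.70 ± 0.20), with its highest level in tumour 3. Fzd10 and Lef1, like Zeb1, Mmp13 and Id3, did not exceed the highest blank code (0.405 to 0.474 per 1000) in the other cells of every tumour, so the size of their folds is uncertain. The secreted inhibitor Wif1 (-1.27 ± 0.10) and the ligands Wnt7b (-1.16 ± 0.13) and Wnt5b (-1.06 ± 0.10) were lower. In the endothelial-gated cells Wif1 and Wnt7b did not exceed the highest blank code in every tumour, so the size of their folds is also uncertain. Wnt7b overlapped between the groups across tumours, since its level varied from 1.19 to 4.37 per 1000 in the other cells alone. With library size alone, 4 Wnt genes were higher and 18 lower.

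Genes of other cell types were also read in the endothelial-gated cells. Col4a1 and Sparc took 207 ± 20 and 95.5 ± 10.7 per 1000 there (SD, n = 3). In all other kept cells they took 21.1 ± 3.3 and 19.8 ± 2.9. This lowers the levels per 1000 of the remaining genes in the gated cells, and with them the sums below. The 11 epithelial markers on the panel summed to 53.4, 55.0 and 48.2 per 1000 in tumours 1, 2 and 3, against 122.9, 119.8 and 109.5 in all other kept cells. Of these 11, 7 were lower and 0 higher by edgeR, where 26.9% and 26.1% of all genes were (the counts at an unadjusted p below 0.05 and by DESeq2 were the same). Sox9, a progenitor transcription factor, fell by 1.04 on the log2 scale (edgeR adjusted p = 0.000747), Cldn4, a tight junction gene, by 1.05 and the keratin gene Krt7 by 1.07. Without tumour 3, Krt17 no longer passed (edgeR adjusted p = 0.0840). In the endothelial-gated cells Krt7 and Krt17 did not exceed the highest blank code in every tumour, so the size of their folds is uncertain. The 7 fibroblast markers other than Col1a1, which the gate limits, summed to 9.61, 7.05 and 5.17 per 1000 against 11.5, 9.11 and 6.58. Of these 7, Dpt and Thy1 were higher and 0 lower by edgeR (1 lower at an unadjusted p below 0.05 and 2 by DESeq2). Neither Dpt nor Thy1 exceeded the blank codes in every tumour. With library size alone 1 was higher (Thy1) and 3 lower (Pdgfra, Postn and Lrrc15). Of the 2 pericyte or smooth muscle markers that no gate used, Notch3 was lower and Acta2 higher. Acta2 did not exceed the blank codes in every tumour. In the contractile list 3 of 5 genes were higher (Acta2, Tagln and Flna) and 0 lower, where 26.1% and 26.9% of all genes were. With library size alone 0 of these 5 were called. The macrophage and dendritic list summed to 4.59, 4.65 and 4.38 against 6.49, 7.61 and 6.43, while 2 of its 7 tested genes were higher (Cd163 and Ccl8, both under the blank codes) and Cd14 was lower, with a median log2 fold change of 0.31. Of 15 T, NK and B cell genes, Gzmb, Prf1 and Lag3 were higher and Foxp3 and Tigit lower, and with library size alone 1 was higher and 8 lower. Lag3, an inhibitory receptor of T cells, was higher, at 2.42, 1.55 and 2.57 against 0.585, 0.423 and 0.422 (log2 fold change 2.46 ± 0.19, edgeR adjusted p = 0.000747). It was the only gene of these 15 to exceed the highest blank code in the endothelial-gated cells of every tumour, and the T cell receptor gene Cd3g stood at 0.36 ± 0.11 per 1000 against a highest blank code of 0.572 to 0.915. The part of T cells in the Lag3 level was not tested. When the 27 blank codes were put in the fit beside the genes, 8 were called higher and 7 lower, with log2 fold changes from -0.70 to 1.29.

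Levels differed among the members with the number of gate transcripts they held, which is a description of the gate and was not tested. In tumour 1 the epithelial list summed to 82.2 per 1000 in members with 3 gate transcripts and 24.1 in those with 10 or more, in tumour 2 to 90.01 and 22.5 and in tumour 3 to 63.9 and 20.03. Dll4 took the opposite course, from 7.38 to 15.3, from 7.01 to 17.6 and from 12.9 to 24.7 per 1000. Col4a1 went from 129 to 248, from 120 to 272 and from 177 to 317. Just outside the gate, cells with 2 gate transcripts held Dll4 at 3.03, 2.91 and 5.05, between the members with 3 and the cells with none. At the Col1a1 limit the levels lay closer together, with Dll4 at 10.8, 10.2 and 16.8 in members with Col1a1 at 10 to 15% and 10.02, 10.4 and 14.5 in cells just over it. At the limit on Pdgfrb and Rgs5, members with 1 such transcript held Dll4 at 11.6, 12.2 and 16.1, and cells with 2 held 11.2, 12.8 and 16.4.

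**Figure D4:**
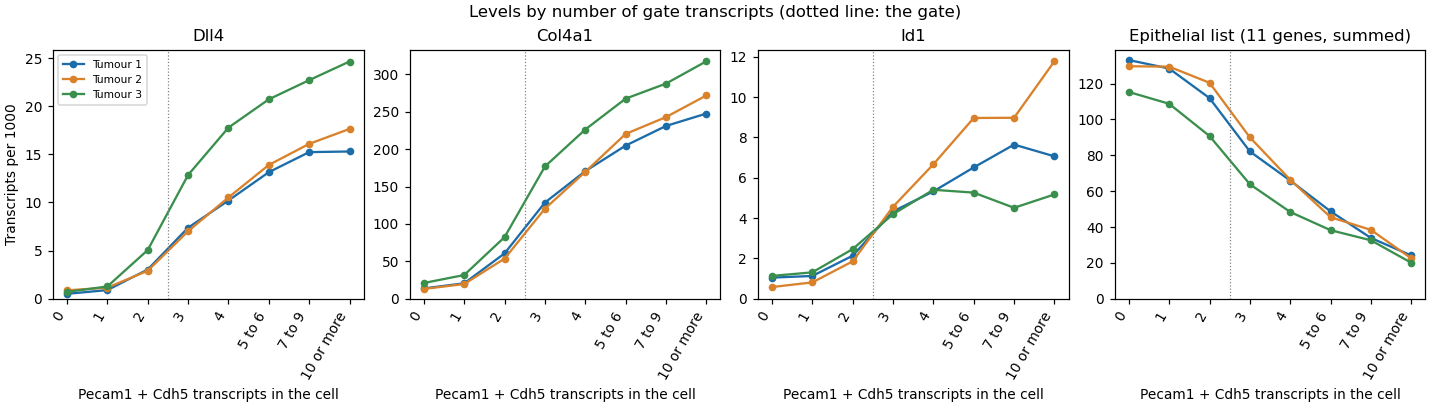
Transcripts per 1000 panel transcripts of Dll4, Col4a1, Id1 and the summed epithelial list (y axes from 0) by the number of Pecam1 and Cdh5 transcripts in the cell, 1 line per tumour, with the gate as a dotted line. From 3 to 10 or more gate transcripts, Dll4 and Col4a1 climb in all 3 tumours and the epithelial list falls, while Id1 in tumour 3 stays between 4.51 and 5.40 from 4 transcripts on.

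Since segmentation can give a cell transcripts of its neighbours, the endothelial-gated cells were next set against other kept cells centred within 25 µm of one. In this comparison 71 of 253 genes were higher (28.1%) and 75 lower (29.6%) by edgeR, 57.7% in either direction. The neighbours held Dll4 at 0.951, 1.36 and 1.52 per 1000, against the 11.9 to 17.6 of the endothelial-gated cells. Its log2 fold change was 3.78 ± 0.11 (edgeR adjusted p = 4.96e-37). Variances were pooled over genes more strongly here than against all other cells (prior degrees of freedom 55.3 and 3.18). The p-values of these 2 comparisons therefore cannot be ranked. Col4a1 was 28.6, 33.0 and 42.7 in the neighbours (2.91 ± 0.10), Id1 was 1.20, 1.01 and 1.32 (2.71 ± 0.13) and Jag2 was 2.35, 1.73 and 1.06 (2.38 ± 0.12). Klf4 and Mmp13 were higher by 2.20 ± 0.12 and 2.21 ± 0.13. Wif1 (-1.35 ± 0.14), Ltbp2, which encodes a matrix protein that binds latent TGF-beta relatives (-0.86 ± 0.10), and Sox9 (-0.80 ± 0.10) were lower. As above, Wif1 in the endothelial-gated cells did not exceed the highest blank code in every tumour. Of the 27 blank codes, 9 were also called higher and 3 lower, with log2 fold changes up to 1.32. Of 11 Notch genes, 5 were higher (Notch1, Dll1, Dll4, Jag1 and Jag2) and 2 lower (Notch2 and Notch3), where 28.1% and 29.6% of all genes were. With library size alone 3 of the 11 were higher (Dll4, Jag1 and Jag2) and 4 lower. All 6 endothelial-to-mesenchymal factors that were higher against all other cells were higher here too. Scaling by library size alone gave 43 higher and 141 lower.

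Against pericyte-gated cells, the other cell type of the capillary wall, the endothelial-gated cells again had more Dll4, Id1 and Jag2 and less Notch3. This comparison, as the one with fibroblasts, uses the same endothelial sums as those above. There were 38 of 253 genes higher (15%) and 42 lower (16.6%) by edgeR, 31.6% in either direction. Dll4 was 1.07, 1.43 and 2.10 per 1000 in the 9458 pericyte-gated cells (log2 fold change 3.38 ± 0.14, edgeR adjusted p = 0.000306), Id1 was 1.22, 1.07 and 1.60 (2.42 ± 0.28) and Jag2 was 2.35, 1.86 and 1.03 (2.19 ± 0.12). Klf4 was higher by 1.98 ± 0.11, Fzd10 by 1.70 ± 0.10 and Lef1 by 1.47 ± 0.12. In the pericyte-gated cells all 6 of these genes lay under the highest blank code of tumour 2 (6.50 per 1000), and Fzd10 and Lef1 also under those of tumours 1 and 3 (0.828 and 0.993), so these folds set a level against one not told from false decoding. Notch3 stood at 4.16, 6.13 and 5.11 against 22.6, 26.6 and 29.4, with no overlap (-2.21 ± 0.11, edgeR adjusted p = 0.000452). Of the Notch list, 5 of 11 genes were higher (Notch1, Dll1, Dll4, Jag2 and Hes1) and Notch3 and Jag1 lower. Of 8 endothelial-to-mesenchymal factors, Zeb1 and Tcf4 were higher and Twist1 and Prrx1 lower, with a median of 0.07. Among these only Zeb1 exceeded the highest blank code. Snai1, Snai2, Zeb2 and Foxc2, higher than in all other cells, were not called here. The list summed to 8.01, 7.47 and 5.24 per 1000 against 6.55, 6.96 and 7.49 in the pericyte-gated cells, lower in tumour 3 only. Mgp, an inhibitor of vessel calcification, was lower by 1.69 ± 0.19 and the matrix gene Postn by 1.56 ± 0.17.

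Col4a1 separated endothelial cells from pericytes less than from other cells. It was 77.2, 110 and 167 per 1000 in the pericyte-gated cells, which ranks them in the same order of tumours as the endothelial-gated cells, at 191, 199 and 230 (1.03 ± 0.21, edgeR adjusted p = 0.0232). Sparc was 55.0, 50.1 and 58.6 against 106, 84.9 and 95.1 (0.96 ± 0.11). Without tumour 1, 21 genes were lower than in pericytes, and without tumour 2, 27. In tumour 2, 22 pericyte-gated cells had blank codes above 10% of panel transcripts and 1 blank code reached 6.50 per 1000. Leaving such cells out gave 39 genes higher and 42 lower.

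Fibroblast-gated cells, 86593 in all, differed more widely, with 76 of 253 genes higher (30%) and 80 lower (31.6%) in the endothelial-gated cells by edgeR, 61.7% in either direction. Dll4 was 0.417, 0.563 and 0.726 per 1000 in the fibroblasts (log2 fold change 4.40 ± 0.14, edgeR adjusted p = 1.99e-05). Id1 was 0.739, 0.621 and 0.821 (2.85 ± 0.23), Col4a1 was 27.7, 30.2 and 26.5 (2.64 ± 0.14) and Jag2 was 1.65, 1.72 and 1.22 (1.93 ± 0.10). Sparc, at 67.9, 65.0 and 65.8, was lower than in every endothelial sum, yet the difference did not pass on the TMM scale (0.28 ± 0.13, edgeR adjusted p = 0.0973). Of 8 endothelial-to-mesenchymal factors, 4 were higher (Snai1, Zeb1, Foxc2 and Tcf4) and 3 lower (Twist1, Zeb2 and Prrx1) by edgeR, with a median of 0.49. Of the Notch list, 6 of 11 genes were higher and 0 lower by edgeR, also 6 and 0 at an unadjusted p and 7 and 0 by DESeq2. Cell cycle genes were higher too, at 3 of 4 (Mki67, Top2a and Ccnd1). None of these 3 was called against all other kept cells, and Mki67 was lower than in neighbours within 25 µm. The 4 genes summed to 20.3 ± 2.6 per 1000 in the endothelial-gated and 9.90 ± 2.13 in the fibroblast-gated cells (SD, n = 3). Their sum was 23.1 ± 3.0 in all other kept cells and 27.5 ± 3.8 in neighbours. All 7 fibroblast markers that the gate did not use were lower, among them Pi16 (-3.06 ± 0.33), Lrrc15 (-2.72 ± 0.11) and Postn (-2.54 ± 0.09), together with Dkk3, a secreted Wnt modulator (-2.79 ± 0.11), the monocyte attractant Ccl2 (-2.72 ± 0.16) and the matrix gene Tnc (-2.40 ± 0.09). In the fibroblast-gated cells Dll4 and Id1 lay under the highest blank code of each tumour (0.891 to 1.30 per 1000), and Jag2 under that of tumour 3. In the endothelial-gated cells Pi16, Lrrc15, Dkk3 and Ccl2 did not exceed the highest blank code in every tumour. The size of all these folds is thus uncertain. The fibroblast markers summed to 416 ± 33 per 1000 there with Col1a1 and to 33.7 ± 9.6 without it (SD, n = 3). The Col1a1 that the gate demands thus lowers the levels per 1000 of all other genes in these cells. High Col4a1 and Sparc likewise lower the other levels per 1000, and the cell cycle sum, in the endothelial-gated cells. Blank codes were called too, 4 of 27 higher and 9 lower, with log2 fold changes down to -1.75. Without tumour 2 the counts were 35 higher and 51 lower, and with library size alone 102 and 63.

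**Figure D5:**
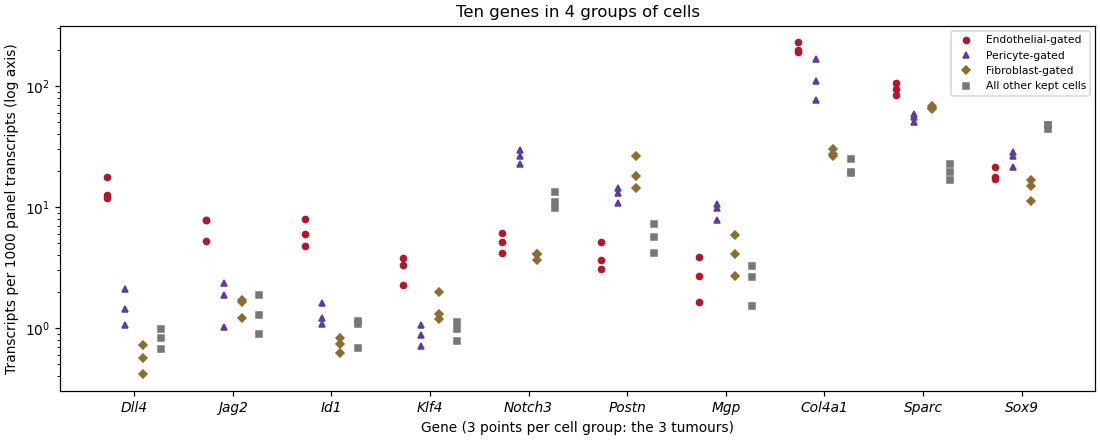
Transcripts per 1000 panel transcripts (log axis) of 10 genes in endothelial-gated, pericyte-gated, fibroblast-gated and all other kept cells, with 3 points per group for the 3 tumours. Dll4, Jag2, Id1 and Klf4 are highest in the endothelial-gated cells, Notch3 in the pericyte-gated cells, Postn in the fibroblast-gated cells and Sox9 in all other kept cells, while Col4a1 runs from 77.2 to 167 in the pericyte-gated cells, below the 191 to 230 of the endothelial-gated cells.

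Within the endothelial-gated cells, Dpt was higher and Lef1 and Chad were lower at the tumour margin than in the interior. Cells within 150 µm of the tissue edge (523, 395 and 164 in tumours 1, 2 and 3) were set against those at 500 µm or deeper (4922, 3050 and 2133). By edgeR, 1 of 258 genes was higher at the margin (0.388%) and 2 were lower (0.775%), 1.16% in either direction, and 52 had an unadjusted p below 0.05. Dpt, which encodes the matrix protein dermatopontin and marks fibroblasts, was 2.52, 1.67 and 1.004 per 1000 at the margin and 0.825, 0.524 and 0.314 in the interior (log2 fold change 1.53 ± 0.25, edgeR adjusted p = 0.0168). In tumours 2 and 3 interior Dpt lay under the highest blank code (0.574 and 0.964 per 1000), so the size of its fold is uncertain. The 7 fibroblast markers other than Col1a1, Dpt among them, summed to 10.2 ± 4.0 per 1000 at the margin and 6.52 ± 1.91 in the interior (SD, n = 3). Macrophage and dendritic markers summed to 7.44, 6.65 and 5.12 at the margin and 3.94, 4.202 and 4.25 in the interior, without overlap. The part of either cell type in the margin results was not tested. Lef1 was 0.242, 0.445 and 0.634 at the margin and 0.825, 1.09 and 1.62 in the interior (-1.59 ± 0.28, edgeR adjusted p = 0.0168), and no margin value reached an interior one. The margin values lay under the highest blank code of their tumour (0.749 to 0.852 per 1000). Chad, a cartilage matrix gene, was 1.12, 0.982 and 1.22 against 1.93, 2.61 and 3.94 (-1.37 ± 0.24).

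In the other kept cells Lef1 was 0.340 ± 0.087 per 1000 at the margin and 0.369 ± 0.106 in the interior (SD, n = 3), but the difference between the cell groups did not pass (interaction -1.41 ± 0.35, edgeR adjusted p = 0.135). That interaction test called 0 of 258 genes in edgeR, and 28 had an unadjusted p below 0.05. Dll4 (12.5 ± 3.2 against 14.5 ± 3.2) and Col4a1 (228 ± 65 against 206 ± 13) did not pass between margin and interior. Without tumour 2, 0 genes passed in edgeR (19 had an unadjusted p below 0.05), and without tumour 3 also 0 (36 had one), while 26 higher and 24 lower passed without tumour 1. DESeq2 on all 3 tumours called 3 higher and 5 lower.

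Endothelial-gated cells near a fibroblast-gated cell (within 25 µm; 4584, 2427 and 1387 cells) were compared with those that had none within 75 µm (265, 659 and 501). Near fibroblasts, 16 of 256 genes were higher (6.25%) and 2 lower (0.781%) by edgeR, 7.03% in either direction. Scaled by library size alone the split was 17 and 15, and with other distance limits (near within 15 µm, none within 50 µm) 38 and 28. Without members holding Cx3cr1, Cd14 or Lag3 transcripts, 0 passed in edgeR (43 had an unadjusted p below 0.05), and DESeq2 on all members called 14 higher and 6 lower. Id1 was 6.40, 9.96 and 5.73 per 1000 near and 3.98, 4.05 and 3.31 far (log2 fold change 1.01 ± 0.23, edgeR adjusted p = 0.0250). Snai1 was 2.88, 3.11 and 2.29 against 1.68, 1.50 and 1.62 (0.86 ± 0.24). Neither overlapped between near and far. The matrix genes Tnc (1.20 ± 0.25) and Postn (1.14 ± 0.29) and the basal keratin gene Krt5 (1.20 ± 0.30) were higher, and Arg1, an arginase of myeloid cells (-1.14 ± 0.28), and Bglap3 (-1.04 ± 0.26) lower.

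Col1a1, which defines the fibroblast gate, was left out of the marker sum. The other 7 fibroblast markers summed to 8.44 ± 2.12 per 1000 near and 4.14 ± 1.82 far (SD, n = 3), and their part in these results was not tested. In the fibroblast-gated cells Id1 was 0.739, 0.621 and 0.821 per 1000 and Tnc 10.1, 12.7 and 12.6. The same split in the other kept cells, fibroblast-gated ones left out, gave Id1 at 1.17 ± 0.21 near and 0.813 ± 0.314 far. The test of the difference between the cell groups called 0 of 258 genes in edgeR, and 21 had an unadjusted p below 0.05. Without tumour 3, 2 genes were higher near fibroblasts and 0 lower. Without tumour 1 there were 28 and 25, and without tumour 2, 10 and 5.

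Endothelial-gated cells in groups, with 2 or more others within 25 µm (1694, 609 and 302 cells), had more of the proliferation marker Mki67 than isolated ones with none within 50 µm (1498, 1472 and 1233 cells). Mki67 was 6.84, 3.98 and 3.89 per 1000 in groups and 4.46, 2.89 and 3.21 in isolation, higher in 3 of 3 tumours (log2 fold change 0.48 ± 0.12, edgeR adjusted p = 0.0126). Ccnd1, which encodes the G1 cyclin D1, was 15.7, 17.6 and 15.04 against 11.9, 13.1 and 12.3 (0.39 ± 0.10, edgeR adjusted p = 0.0126). These 2 were the genes called higher of 255 tested (0.784%), and 6 were lower (2.35%), 3.14% in either direction. Lower genes included Tgfb3 (-0.39 ± 0.10), Wnt5b (-0.41 ± 0.12) and the protease inhibitor gene Slpi (-0.56 ± 0.15). The epithelial list was 51.4 ± 3.9 in groups and 53.8 ± 4.9 in isolation. Dll4, Jag2, Col4a1 and the gate genes were not called. In this comparison edgeR pooled the variance fully over genes. Without tumour 2, 0 genes passed in edgeR (17 had an unadjusted p below 0.05), without tumour 3 also 0 (13 had one), and without tumour 1, 8 were higher and 9 lower. DESeq2 on all 3 tumours called 1 higher and 1 lower. The calls were also lost with at least 5 gate transcripts, with other distance limits, and without members holding Cx3cr1, Cd14 or Lag3 transcripts. Whether other kept cells at these positions differ in the same way was not tested.

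The spread between the 3 tumours differed from gene to gene within the endothelial-gated cells. Among genes higher than in all other cells, the coefficient of variation over tumours was 9.88% for Col4a1, 11.3% for Sparc, 22.1% for Dll4, 25.8% for Id1 and 39.9% for Lef1. Krt5 (61.8%), the interferon-induced factor gene Irf7 (55.3%) and Thbs1 (51.4%) varied most among the genes above the highest blank code. Irf7 was 1.84, 4.86 and 6.75 per 1000 in the endothelial-gated cells and 3.60, 10.05 and 8.84 in all other kept cells, lowest in tumour 1 in both. Thbs1 was highest in tumour 3 in both, at 25.3 and 56.7 per 1000.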

How the data were processed

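MERSCOPE imaging of 3 tumour sections gave decoded transcript counts per segmented cell, deposited by the authors as whole numbers per cell and code, per the file headers, with cell volume, position and shape. Distances are read as µm and volumes as µm3, since the headers state no unit. How cells were segmented and transcripts decoded is not given in these sources. Scanpy 1.9.3 appears in the submitters' processing notes, with no step attached. The tables listed 663145, 513963 and 786165 cells with 71492483, 60759690 and 78051090 panel transcripts, and blank codes came to 0.503%, 0.481% and 0.496% of these. No cell identifier was shared between tumours, and no doublet caller was run on these segmented cells.

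The members and gene lists were chosen with earlier results of these data known. Counts were summed per tumour and group of cells and tested with edgeR 4.0.16 (R 4.3.3, limma 3.58.1; TMM, filterByExpr, quasi-likelihood F-test, tumour as block because both groups come from the same section), with Benjamini-Hochberg adjustment over all genes tested and a threshold of 0.05. An error after a log2 fold change is its SE. The 5 gate genes were not tested where a gate used them. The fit was also run on simulated sums with known changes, whose outcome is not given in this text. Levels are counts per 1000 panel transcripts, with the SD between tumours. A gene was named where it passed, had 1 sign in 3 of 3 tumours and exceeded the highest blank code: the 15 highest and 10 lowest against all other kept cells, the 6 highest and 6 lowest otherwise. Gate genes, endothelial genes and up to 4 genes of each list with the largest change were added, and others (Notch2, Hes1, Id2, Thbs1, Timp2, Snai2 and Irf7, and Dll4, Jag2 and Col4a1 within the endothelial-gated cells) were named after their values were seen. A gene that met the rule is not reported here. Alternatives were DESeq2 1.42.0, library size alone, no filter, no block, each tumour left out, other gates and other distances.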

Additional observations from a re-analysis of the deposited data

How the results depend on the processing

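Without the replicate block, which pairs both groups of cells by tumour, 40 genes were higher and 17 lower than in all other kept cells, 38 and 5 than in neighbours, 16 and 15 than in pericyte-gated cells, and 44 were higher than in fibroblast-gated cells. Margin, fibroblast proximity and grouping then gave 0 calls each in edgeR (28, 30 and 2 genes at an unadjusted p below 0.05). With library size alone, 131 genes were lower than in all other cells, 43 higher and 141 lower than in neighbours, 79 lower than in pericytes, 0 lower at the margin, 15 lower near fibroblasts and 4 lower in the margin interaction. DESeq2 called 3 higher and 5 lower at the margin, 6 lower near fibroblasts, and 1 higher and 1 lower in groups. With at least 5 gate transcripts, the members' mean share of kept cells was 0.424% in place of 0.847%, 1 gene was lower at the margin, 10 were higher and 4 lower near fibroblasts, and 0 were called in groups. Without members holding Cx3cr1, Cd14 or Lag3 transcripts, 0 genes were called at the margin, near fibroblasts or in groups. With other distance limits 0 were called at the margin and in groups, but 38 higher and 28 lower near fibroblasts. Leaving out 1 tumour in turn gave 50 to 62 genes higher and 44 to 63 lower than in all other cells, 55 to 64 and 58 to 62 than in neighbours, 26 to 41 and 21 to 41 than in pericytes, and 35 to 68 and 51 to 83 than in fibroblasts. It gave 0 to 26 higher and 0 to 24 lower at the margin, 2 to 28 and 0 to 25 near fibroblasts, 0 to 8 and 0 to 9 in groups, and 0 in both interactions. The cause of these shifts was not tested. Gzmb, higher by 0.57 than in all other cells, was at -0.025 when both gate genes had to be detected. Of 752 values of 58 named genes against all other cells, 687 kept direction and call, 64 lost the call and 1 reversed. Dll4 kept its call against all other, neighbouring, pericyte-gated and fibroblast-gated cells in every alternative run. The gate was also replaced by gates on 1 gene, and cells over 10% blank codes were left out, both chosen after seeing the data. Genes under the highest blank code have no level that can be told from false decoding at this depth.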

Other observations

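Genes of interferon signalling and inflammation were read in the endothelial-gated cells as well. Of 10 interferon genes, 2 were higher than in all other kept cells (Cxcl9 and Cd274) and 3 lower (Ifit3, Mx1 and Irf7) by edgeR, where 26.1% and 26.9% of all 253 genes were. Cxcl9 and Cd274 did not exceed the blank codes in every tumour. Of 18 inflammatory and NF-kB genes 3 were higher and 4 lower. Of 3 antigen presentation genes H2-K1, a class I heavy chain, was lower. The lymphatic marker Lyve1 was 0.380, 0.574 and 0.129 per 1000 against 0.155, 0.184 and 0.175 in all other kept cells (log2 fold change 1.22 ± 0.39, edgeR adjusted p = 0.0470), below the highest blank code in each tumour and lower than in the other cells in tumour 3. The artery gene Hey1 differed by -0.20 on the log2 scale and did not pass (edgeR adjusted p = 0.171).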
